A study of Mus musculus with 4 samples.

Results

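The forkhead transcription factors of the mouse were followed in sorted cells enriched for meiotic prophase from the testes of *Zfp541* KO males and their heterozygous controls. Members were taken by gene symbol alone, as every row named Fox, then a letter from A to S, then its number, and 44 of the 24411 gene rows met that rule in each of the 4 libraries. The rule reads the symbol and no measured value. Of the 44 genes, 19 reached a mean of at least 1 TPM (a level corrected for transcript length and for the total of the library) over the 4 libraries and were compared between genotypes, and 25 did not.

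Forkhead factors share a winged-helix DNA-binding domain that recognises short AT-rich motifs built around the core TGTTTAC, and they are grouped into lettered classes by the similarity of that domain. Several classes are best known as readouts of signalling: FOXO proteins are held in the cytoplasm after phosphorylation by AKT, and FOXH1 carries SMAD complexes to DNA. In the testis, FOXO1 is known for the maintenance of spermatogonial stem cells, and FOXJ1, outside the testis, for the programme of motile cilia, structures related to the sperm flagellum.

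The question behind the comparison was how transcription in meiotic prophase differs when ZFP541, a zinc finger protein of spermatocytes, is disrupted. All 4 libraries came from testes at postnatal day 18 and from males carrying *Rec8-3xFLAG-HA-p2A-GFP*, a knock-in reporter in which the meiotic cohesin gene *Rec8* drives GFP, and GFP-positive cells were isolated by fluorescence-activated cell sorting. The 2 control libraries were *Zfp541*+/- on the reporter background, 1 testis with a heterozygous and 1 with a homozygous knock-in, and which control was which is not given in the labels. The 2 libraries labelled *Zfp541* KO were individual testes homozygous for both the KO and the knock-in. The KO allele is a CRISPR deletion that begins in the first exon and spans many exons, made in C57BL/6 eggs, whereas the labels give the strain as C57BL/6 and CBA mixed. Several KO lines were made, and 1 of them, line #16, served for most experiments unless stated otherwise. With 2 animals per genotype, each p-value below sets a difference against the spread between single testes. That spread is drawn, for each gene, towards that of genes of similar level. In the controls it also holds the difference in knock-in copy number.

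The level of the targeted gene did not separate the libraries in the direction of the label. *Zfp541* stood at 112.04 TPM in control 1, 72.22 TPM in control 2, 135.7 TPM in the first KO library and 151.35 TPM in the second, a log2 fold change of 0.67 ± 0.28 (SE, adjusted p = 0.371, limma). A gene-level value does not show which exons the reads came from, so this neither checks nor contradicts the deletion, and the genotype rests on the label throughout.

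The controls also differed from each other more than the KO libraries did. Over the 14512 genes that reached this mean, the Euclidean distance on the log2 scale was 153 between the controls, 49.2 between the KO libraries and 111 to 133 between a control and a KO library. The marker sums moved with this. The marker counts that follow take every listed marker, whatever its level. Over all genes compared, the shares were 38.6% higher and 12.1% lower in both KO libraries than in both controls. Pachytene markers summed to 6120 and 3002 TPM in the heterozygotes and 2201 and 3039 TPM in the KO libraries, with 2 of 10 genes higher and 5 lower in both KO libraries than in both controls, and leptotene and zygotene markers to 1975 and 2476 against 4001 and 4132 TPM, with 9 of 10 higher and 0 lower. Leydig cell markers summed to 2938 and 19.1 TPM in the heterozygotes and 333 and 507 TPM in the KO libraries, and macrophage markers to 1388 and 19.3 against 1250 and 938 TPM. Spermatogonial markers summed to 506 and 1094 against 1010 and 832 TPM, with 3 of 10 higher and 0 lower. The 10 round spermatid markers summed to 137 and 53.3 against 49.3 and 51.6 TPM, with 2 higher and 1 lower. Only 3 of these 10 reached the mean of 1 TPM, and 3 were under 1 TPM in every library. Among the 2 higher was *Tnp1*, at 0 and 0 against 0.62 and 1.02 TPM. Sertoli cell markers summed to 938 and 920 against 1258 and 918 TPM, peritubular myoid markers to 59.1 and 67.3 against 66.2 and 55.7 TPM, endothelial markers to 9.23 and 1.93 against 5.54 and 5.05 TPM, and red blood cell markers to 71.5 and 20.3 against 29.7 and 280.2 TPM. The part of these shifts in cell composition in any forkhead difference was not tested, and in sorted bulk samples fewer cells of a type and less RNA per cell cannot be told apart. *Rec8*, the gene that drives the sorted GFP, had 7.05 and 27.85 TPM in the heterozygotes and 27.66 and 19.41 TPM in the KO libraries. It was thus lowest in control 1, and the purity of each sort was not tested.

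Promoter sequence is shown for *Foxj3*, *Foxo1* and *Foxd2*, 3 genes from 3 classes that were higher in both KO libraries. Their tabulated starts have upstream bases that are free of untranslated sequence or nearly so. *Foxn3* (log2 fold change 0.88, against 0.76 for *Foxd2*) and *Foxo3* were also higher and had a window, not shown. That of *Foxn3* holds 35 bases of its own untranslated sequence. The *Foxj3* window lies inside its gene model, which begins at 119537004. Each line gives the 250 bases before the RefSeq start, 5′ to 3′ on the strand of the gene (GRCm38.p6, the assembly of mm10), in lower case with every CG dinucleotide in capitals. The window of *Foxj3* is chr4:119539411-119539660 on the plus strand, that of *Foxo1* chr3:52268087-52268336 on the plus strand and that of *Foxd2* chr4:114908899-114909148 on the minus strand.
Foxj3: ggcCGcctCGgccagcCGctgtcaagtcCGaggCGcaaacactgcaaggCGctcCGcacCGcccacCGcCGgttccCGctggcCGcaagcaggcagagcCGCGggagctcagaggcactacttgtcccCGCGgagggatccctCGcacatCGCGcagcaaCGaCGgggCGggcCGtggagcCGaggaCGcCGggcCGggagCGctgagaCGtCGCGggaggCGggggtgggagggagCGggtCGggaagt
Foxo1: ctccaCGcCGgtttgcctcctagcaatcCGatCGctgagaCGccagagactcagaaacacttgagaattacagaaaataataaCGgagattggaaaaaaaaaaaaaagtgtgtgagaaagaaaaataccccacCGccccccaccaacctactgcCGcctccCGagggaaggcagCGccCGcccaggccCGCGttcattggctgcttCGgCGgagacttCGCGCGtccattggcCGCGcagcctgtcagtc
Foxd2: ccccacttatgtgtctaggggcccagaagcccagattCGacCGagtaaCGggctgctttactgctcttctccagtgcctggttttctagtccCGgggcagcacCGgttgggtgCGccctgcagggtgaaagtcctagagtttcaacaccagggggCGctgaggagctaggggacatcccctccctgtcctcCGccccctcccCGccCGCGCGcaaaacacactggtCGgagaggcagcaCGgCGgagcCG
The capitals show how dense CpG is in the windows: 34 CG dinucleotides before *Foxj3*, 20 before *Foxo1* and 16 before *Foxd2*. Counted over the whole 300 bases that include 50 after the start, they held 42, 31 and 26, against a median of 7 over the 32851 promoter windows of the table. The table held a window for 28 of the 44 members, and for 10 of the 19 genes compared, where 10 of 12 windows lay above that median. Windows of members not compared were often dense too, with 32 for *Foxc1*, 31 for *Foxi3* and 25 for *Foxd3*. Those of *Foxi1* (6), *Foxi2* (5) and *Foxr2* (3) and a *Foxp3* window (6) lay below the median. The density was thus not particular to the compared genes. The *Foxj3* window also shares 119 bases with an exon of a processed transcript of *Frg2f1*, annotated on the other strand.

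The forkhead core TGTTTAC, searched on both strands, was found in 1 of the 33 member windows, that of *Foxa1*, and in 3.65% of all windows. Values of compared genes with and without the core were close. The 327 compared genes that held it had a median log2 fold change of 0.28, with 38.5% higher and 13.5% lower in both KO libraries, and the 10597 without it had a median of 0.29, with 39.1% higher and 12% lower. A match of letters is not a bound site, and no match says only that these letters are not in the window.

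No forkhead gene passed a false discovery rate of 0.05 between genotypes, and neither did any of the 14512 genes compared (0%, limma on log2(TPM + 1), n = 2 per group). Without adjustment, 3 forkhead genes had p under 0.05, namely *Foxj3*, *Foxn2* and *Foxo1*, all higher in KO, against 10.7% of all genes on the higher side and 3.73% on the lower side. Both KO libraries stood above both controls for 8 of the 19 genes (*Foxd2*, *Foxj3*, *Foxm1*, *Foxn2*, *Foxn3*, *Foxo1*, *Foxo3* and *Foxq1*), a share of 42.1% beside a background of 38.6%. *Foxh1* alone stood below both controls in both KO libraries, where the background was 12.1%. *Foxj3* and *Foxn2* reached a log2 fold change of 1, as did 8.98% of all genes, and no forkhead gene reached -1, as 5.22% did. The share of separated forkhead genes was therefore close to that of all genes, and nothing particular to the family follows from it.

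The median log2 fold change was 0.41 over the 19 forkhead genes and 0.28 over all genes compared, and 11 forkhead genes lay above the latter. The upward shift of all genes depends on how the libraries are scaled. After median-ratio scaling the all-gene median was -0.015, the forkhead median 0.092, and the background of separated genes 22.6% higher and 22.8% lower. *Foxj3*, *Foxm1*, *Foxn2*, *Foxn3* and *Foxo1* stood above both controls in both KO libraries under this scaling and under quantile normalization too. *Foxd2* and *Foxq1* did so under median-ratio scaling but not under quantile normalization, and *Foxo3* under neither. In all, 7 of the 19 were separated upwards under median-ratio scaling. Under quantile normalization 6 were, with *Foxo4* added, beside a background of 27.8%.

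**Figure D1:**
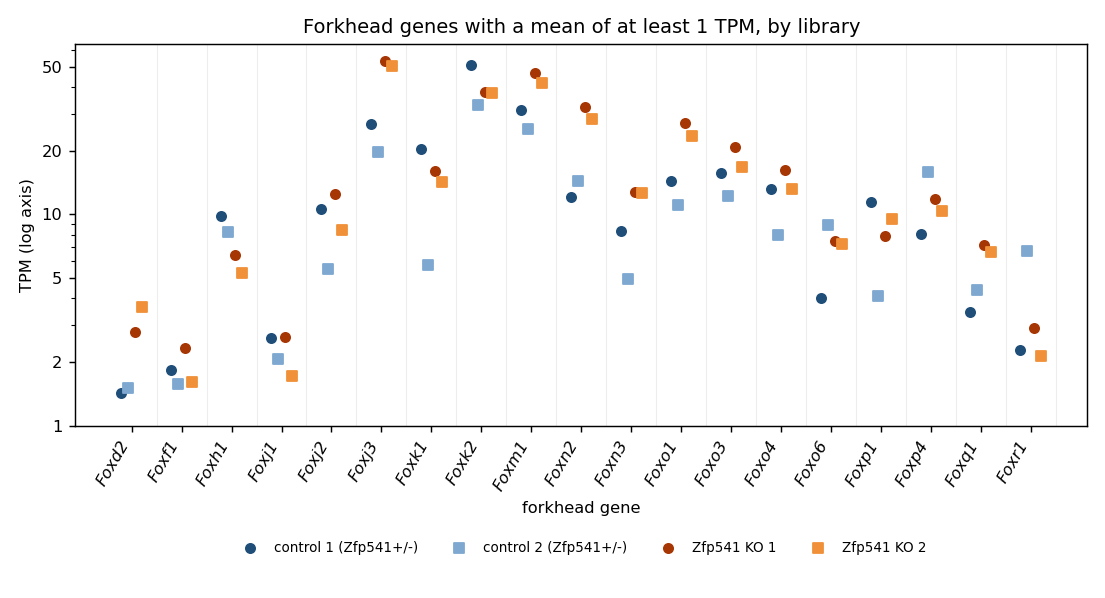
TPM on a log axis of the 19 forkhead genes averaging 1 TPM or more, with 1 point for each of the 4 libraries (blue, controls; red and orange, libraries labelled *Zfp541* KO). The KO points lie above both control points for 8 genes including *Foxj3* and *Foxn2* and below both for *Foxh1*, while the control points lie far apart for *Foxk1*, *Foxp1* and *Foxr1*.

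The forkhead genes together accounted for 257 and 198 TPM in the heterozygotes and for 334 and 302 TPM in the KO libraries. Their 5 highest members took 56.6% and 54.8% of that sum in the controls and 59.3% and 60.4% in the KO libraries. The order within the family differed at the top. *Foxk2* was the highest forkhead gene in both controls and was rank 3 in both KO libraries, *Foxj3* was rank 3 in both controls and rank 1 in both KO libraries, and *Foxm1* was rank 2 in all 4. In control 2 *Foxk2* exceeded *Foxm1*, at 33.08 against 25.42 TPM, by less than the gap between the controls for *Foxk2*.

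*Foxj3* encodes a FOXJ factor known for activation of *Mef2c* in muscle and for a requirement in spermatogenesis. It lies on chromosome 4 (119537004 to 119629119, plus strand, GRCm38). Its level was 26.91 and 19.71 TPM in the heterozygotes and 53.55 and 50.75 TPM in the KO libraries. The groups were separated by more than the gap within either. The means were 23.3 ± 5.09 and 52.2 ± 1.98 TPM (SD, n = 2 each), and the log2 fold change was 1.14 ± 0.26 (SE, unadjusted p = 0.00966, adjusted p = 0.310, limma), ranging from 0.89 to 1.40 over the 4 control and KO pairs. *Foxj3* overlaps *Frg2f1* on the opposite strand, and the library kit does not mark strand, so reads of the overlap cannot be assigned between them.

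The other FOXJ genes did not separate. *Foxj2*, a close relative of *Foxj3*, had 10.57 and 5.52 TPM in the heterozygotes and 12.51 and 8.47 TPM in the KO libraries, a log2 fold change of 0.38 ± 0.47 (SE, adjusted p = 0.722, limma). *Foxj1*, the factor of motile cilia, had 2.6 and 2.06 TPM in the heterozygotes and 2.63 and 1.71 TPM in the KO libraries, a log2 fold change of -0.082 ± 0.41 (SE, adjusted p = 0.939, limma). For both genes the groups overlapped. *Foxj3* made up 67.1% and 72.2% of the summed FOXJ TPM in the heterozygotes and 78.0% and 83.3% in the KO libraries, and the sum itself was 40.1 and 27.3 TPM in the heterozygotes and 68.7 and 60.9 TPM in the KO libraries.

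The FOXN class had 2 compared members. *Foxn2*, first known as a factor binding a retroviral enhancer, lies on chromosome 17 (88440711 to 88490533, plus strand) and had 12.15 and 14.4 TPM in the heterozygotes and 32.33 and 28.41 TPM in the KO libraries. The gap within either genotype was a small part of the gap between them. The means were 13.3 ± 1.59 and 30.4 ± 2.77 TPM (SD, n = 2 each) and the log2 fold change 1.14 ± 0.27 (SE, unadjusted p = 0.0123, adjusted p = 0.310, limma), with a range of 0.93 to 1.34 over the pairs. Unlike *Foxj3*, *Foxn2* was higher in control 2 than in control 1. *Foxn2* moved from rank 8 and 5 among forkhead genes in the controls to rank 4 in both KO libraries.

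*Foxn3*, a checkpoint-linked transcriptional repressor on chromosome 12 (99190078 to 99563582, minus strand), had 8.35 and 4.93 TPM in the heterozygotes and 12.79 and 12.62 TPM in the KO libraries. The KO libraries were nearly equal, and the controls were not. The log2 fold change was 0.88 ± 0.40 (SE, unadjusted p = 0.0866, adjusted p = 0.391, limma), and it was 1.21 without control 1 and 0.55 without control 2. *Foxn3* has an antisense partner, *3300002A11Rik*, whose reads are not told apart from its own here. Summed over the class, FOXN transcripts stood at 20.9 and 20.8 TPM in the heterozygotes and 46.7 and 41.5 TPM in the KO libraries.

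*Foxm1*, an activator of genes for entry into and passage through mitosis, lies on chromosome 6 (128362967 to 128376146, plus strand). It had 31.35 and 25.42 TPM in the heterozygotes and 46.99 and 42.05 TPM in the KO libraries, which were both above the controls. The means were 28.4 ± 4.19 and 44.5 ± 3.49 TPM (SD, n = 2 each) and the log2 fold change 0.64 ± 0.24 (SE, unadjusted p = 0.0512, adjusted p = 0.347, limma), with pairs from 0.41 to 0.86.

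Its known targets were split in direction. Of 15 FOXM1 target genes, 5 (33.3%, beside 38.6% of all genes) were higher and 3 lower (12.1% of all genes) in both KO libraries than in both controls. The median log2 fold change was 0.045, with 0.28 over all genes, and it was -0.28 after median-ratio scaling, -0.025 without control 1 and 0.38 without control 2. *Cenpf*, a kinetochore protein gene, had 53.76 and 29.53 TPM in the heterozygotes and 95.86 and 95.68 TPM in the KO libraries, a log2 fold change of 1.24 ± 0.34 (SE, adjusted p = 0.315, limma). *Birc5*, the gene of the chromosomal passenger survivin, went the other way, with 115.57 and 138.59 against 94.24 and 97.52 TPM and a log2 fold change of -0.40 ± 0.19 (SE, adjusted p = 0.410, limma). *Skp2*, which encodes the substrate receptor of an SCF ubiquitin ligase and also stands in the FOXO cofactor list, had 7.29 and 7.31 TPM in the heterozygotes and 16.91 and 19.9 TPM in the KO libraries, a log2 fold change of 1.22 ± 0.32 (SE, adjusted p = 0.314, limma).

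**Figure D2:**
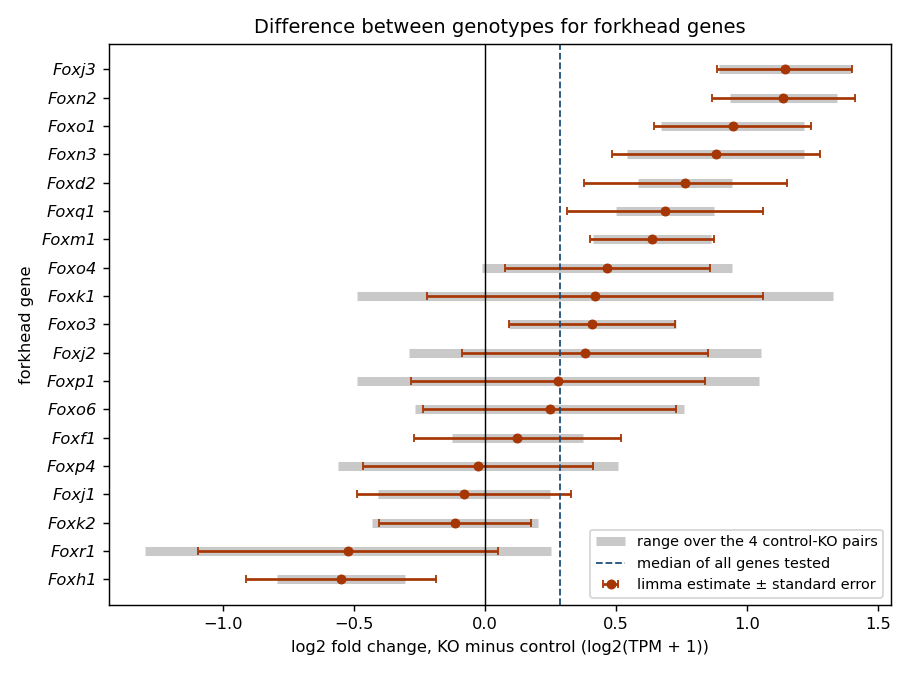
Log2 fold change, KO minus control on log2(TPM + 1), of the 19 forkhead genes compared, with points for the limma estimate, whiskers for its standard error, grey bars for the range over the 4 control and KO pairs, and a dashed line at the median of all genes compared (0.28). *Foxj3* and *Foxn2* lie highest at 1.14 and *Foxh1* lowest at -0.55, and the grey bar crosses 0 for 10 genes.

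All FOXO genes of the mouse were above the 1 TPM mean. *Foxo1*, on chromosome 3 (52268336 to 52353221, plus strand), had 14.41 and 11.04 TPM in the heterozygotes and 27.01 and 23.53 TPM in the KO libraries. The groups were apart by more than the spread within either. The means were 12.7 ± 2.38 and 25.3 ± 2.46 TPM (SD, n = 2 each) and the log2 fold change 0.94 ± 0.30 (SE, unadjusted p = 0.0314, adjusted p = 0.321, limma), with pairs from 0.67 to 1.22. The antisense model *Gm20402* overlaps it, with the same limit on strand. Among the spermatogonial markers, 3 of 10 stood higher in both KO libraries, *Zbtb16*, *Sohlh2* and *Nanos3*, beside 38.6% of all genes. The groups overlapped for the others, and *Nanos3* was barely apart, at 0.73 and 1.88 against 3.34 and 1.91 TPM. The part of spermatogonia in the *Foxo1* values was not tested.

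*Foxo3*, known for holding primordial ovarian follicles in reserve, had 15.65 and 12.24 TPM in the heterozygotes and 20.94 and 16.71 TPM in the KO libraries. The lower KO library was little above the higher control, and the log2 fold change was 0.41 ± 0.32 (SE, adjusted p = 0.570, limma). *Foxo4*, the X-linked member studied in muscle, had 13.25 and 8.01 against 16.32 and 13.14 TPM, with overlapping groups and a log2 fold change of 0.47 ± 0.39 (SE, adjusted p = 0.599, limma). *Foxo6*, best known from brain, had 4.02 and 8.88 against 7.5 and 7.21 TPM, a log2 fold change of 0.25 ± 0.48 (SE, adjusted p = 0.829, limma), with the KO libraries between the controls.

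Within the class the share of *Foxo1* was 30.4% and 27.5% in the controls and 37.6% and 38.8% in the KO libraries, and that of *Foxo3* was 33.1% and 30.5% against 29.2% and 27.6%. *Foxo3* was thus the most abundant FOXO transcript in both controls and *Foxo1* in both KO libraries, though in the controls the pair differed by little more than 1 TPM. The class sum was 47.3 and 40.2 TPM in the heterozygotes and 71.8 and 60.6 TPM in the KO libraries.

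Upstream of FOXO proteins, the 16 genes of the AKT pathway list had a median log2 fold change of 0.61. Of them, 8 (50%, beside 38.6% of all genes) were higher and 1 lower (12.1% of all genes) in both KO libraries. The median was 0.33 after median-ratio scaling, 1.27 without control 1 and 0.12 without control 2. *Rictor*, a scaffold of the kinase complex mTORC2, had 19.77 and 10.78 TPM in the heterozygotes and 35.96 and 34.91 TPM in the KO libraries (log2 fold change 1.22 ± 0.37, SE, adjusted p = 0.320, limma). *Pdpk1*, which encodes the kinase PDK1 that activates AKT, had 40.13 and 23.47 against 64.74 and 61.5 TPM (1.01 ± 0.32, adjusted p = 0.321, limma). *Akt1*, the kinase gene itself, was the one lower in both KO libraries, with 87.49 and 70.99 against 70.38 and 63.16 TPM, although control 2 and the first KO library were almost equal (-0.24 ± 0.21, adjusted p = 0.614, limma).

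The 14 FOXO cofactors and modifying enzymes had a median of 0.47. Of them, 9 (64.3%, beside 38.6% of all genes) were higher and 0 lower (12.1% of all genes). This median was 0.14 after median-ratio scaling and 0.73 without control 1. The acetyltransferase genes *Ep300* and *Crebbp* were among them. *Ep300* had 30.82 and 13.04 TPM in the heterozygotes and 57.78 and 57.67 TPM in the KO libraries (1.47 ± 0.45, adjusted p = 0.320, limma), and *Crebbp* had 19.17 and 8.64 against 31.93 and 35.12 TPM (1.31 ± 0.44, adjusted p = 0.329, limma). For both, the controls stood more than 1 log2 unit apart.

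The 18 FOXO target genes had a median of 0.48. Of them, 11 (61.1%, beside 38.6% of all genes) were higher and 2 lower (12.1% of all genes). After median-ratio scaling the median was 0.18, and without control 2 it was 0.22. *Pik3r3*, a regulatory subunit of PI3 kinase, had 92.21 and 54.73 TPM in the heterozygotes and 133.86 and 154.11 TPM in the KO libraries (1.00 ± 0.31, adjusted p = 0.320, limma). *Gabarapl1*, an autophagosome protein gene, had 122.39 and 92.8 against 75.99 and 70.52 TPM (-0.54 ± 0.22, adjusted p = 0.370, limma). The list thus held separated genes in both directions. Of 8 stem cell genes placed downstream of FOXO1, 5 were at a mean of 1 TPM or more, with a median of 0.074. Of these, 1 (20%) was higher, beside 38.6% of all genes, and 1 lower, beside 12.1% of all genes. That median was -0.22 after median-ratio scaling, -0.21 without control 1 and 0.36 without control 2. *Dusp6*, a phosphatase acting on ERK, had 12.37 and 4.21 against 17.31 and 15.96 TPM (1.08 ± 0.56, adjusted p = 0.432, limma), and the zinc finger gene *Egr4* had 17.34 and 6.99 against 5.3 and 3.18 TPM (-1.24 ± 0.57, adjusted p = 0.397, limma).

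FOXK1 and FOXK2 recruit the SIN3 corepressor and the deubiquitinase BAP1, and restrain autophagy genes. *Foxk2*, the highest forkhead transcript of the controls, had 51.16 and 33.08 TPM in the heterozygotes and 38.15 and 37.65 TPM in the KO libraries (log2 fold change -0.12 ± 0.29, SE, adjusted p = 0.871, limma). *Foxk1* had 20.34 and 5.79 TPM in the heterozygotes and 16.02 and 14.21 TPM in the KO libraries (0.42 ± 0.64, adjusted p = 0.777, limma). In each case both KO libraries lay between the controls, so the sign of the difference depended on which control was used: that of *Foxk1* was 1.24 without control 1 and -0.41 without control 2. The 11 BAP1 and SIN3 partners had a median of 0.55, and of 0.25 after median-ratio scaling. Of them, 5 (45.5%, beside 38.6% of all genes) were higher and 0 lower (12.1% of all genes). *Mbd6*, a subunit of the BAP1 complex, had 88.22 and 29.91 TPM in the heterozygotes and 165.15 and 163.82 TPM in the KO libraries (1.66 ± 0.55, adjusted p = 0.326, limma).

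FOXP factors are repressors that act as dimers within the class. *Foxp1*, known from lung and B cell development, had 11.5 and 4.1 TPM in the heterozygotes and 7.9 and 9.53 TPM in the KO libraries (0.28 ± 0.56, adjusted p = 0.835, limma). *Foxp4*, its frequent partner, had 8.06 and 15.81 against 11.87 and 10.4 TPM (-0.027 ± 0.44, adjusted p = 0.983, limma). Neither separated the genotypes, and both differed most between the controls, in opposite directions. The summed FOXP level was nearly the same in all 4 libraries, at 19.9 and 20.1 TPM in the heterozygotes and 20.2 and 20.1 TPM in the KO libraries, while *Foxp1* made up 57.9% and 20.4% of it in the controls and 39.1% and 47.3% in the KO libraries. *Foxp2*, a gene of neural circuits, and *Foxp3*, the factor of regulatory T cells, stayed at or below 0.22 TPM in every library. The 10 FOXP corepressors had a median of 0.46, and of 0.13 after median-ratio scaling. Higher were 6 (60%, beside 38.6% of all genes) and lower 0 (12.1% of all genes). Among them was *Gatad2b* of the NuRD complex at 27.06 and 20.1 TPM against 43.07 and 44.51 TPM (0.88 ± 0.26, adjusted p = 0.319, limma).

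*Foxh1*, whose protein partners SMAD complexes downstream of Nodal and activin, lies on chromosome 15 (76668225 to 76669948, minus strand). It had 9.87 and 8.22 TPM in the heterozygotes and 6.45 and 5.26 TPM in the KO libraries. This was the only forkhead gene with both KO libraries below both controls. The means were 9.05 ± 1.17 and 5.86 ± 0.841 TPM (SD, n = 2 each) and the log2 fold change -0.55 ± 0.36 (SE, unadjusted p = 0.198, adjusted p = 0.520, limma), with pairs from -0.80 to -0.31, so the separation did not pass the test. Of its 8 SMAD and receptor partners 7 were compared. In both KO libraries 4 (57.1%, beside 38.6% of all genes) were higher and 0 lower (12.1% of all genes), and 3 overlapped. Their median log2 fold change was 0.64, with 0.28 over all genes, and it was 0.32 after median-ratio scaling, 0.99 without control 1 and 0.32 without control 2. The activin receptor gene *Acvr2a* had 17.97 and 8.38 TPM in the heterozygotes and 26.64 and 27.21 TPM in the KO libraries (1.07 ± 0.44, adjusted p = 0.367, limma).

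*Foxd2* and *Foxq1* were low but separated. *Foxd2*, a factor of kidney and other mesenchyme on chromosome 4 (114906282 to 114908873, minus strand), had 1.42 and 1.51 TPM in the heterozygotes and 2.76 and 3.65 TPM in the KO libraries (0.76 ± 0.39, adjusted p = 0.424, limma). The neighbouring antisense gene *Foxd2os* had 0.43 and 0.59 against 0.94 and 0.89 TPM, also higher in both KO libraries. *Foxq1*, known from hair follicle differentiation, on chromosome 13 (31556134 to 31560976, plus strand), had 3.44 and 4.39 against 7.14 and 6.61 TPM (0.69 ± 0.37, adjusted p = 0.447, limma), and overlaps *A530084C06Rik* on the minus strand.

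*Foxr1* and *Foxf1* did not separate. *Foxr1* had 2.27 and 6.7 TPM in the heterozygotes and 2.89 and 2.13 TPM in the KO libraries (-0.52 ± 0.57, adjusted p = 0.687, limma), a difference carried by control 2. *Foxf1*, a gene of lung and gut mesenchyme, had 1.84 and 1.57 against 2.33 and 1.6 TPM (0.12 ± 0.39, adjusted p = 0.902, limma).

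Over the 19 genes, the gap between the controls was larger than the difference between genotypes for 10, and the gap between the KO libraries for 4. The controls were farther apart than the KO libraries for 15 of the 19, and by more than 1 log2 unit for *Foxk1*, *Foxp1* and *Foxr1*. When control 1 was left out, the forkhead median was 0.74 and 8 members passed the false discovery rate, and when control 2 was left out it was 0.24 and 2 members passed, *Foxj3* and *Foxn2*. In these fits the remaining control is assumed to vary like the KO pair, and 6985 and 4123 of all genes passed as well.

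**Figure D3:**
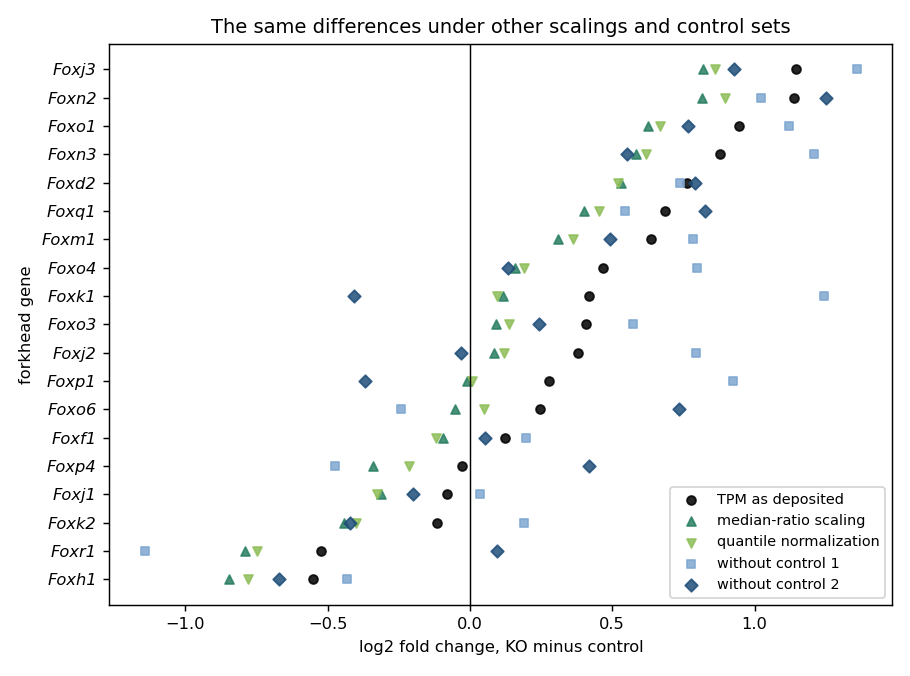
Log2 fold change, KO minus control, of the 19 forkhead genes with the TPM as deposited, after median-ratio scaling, after quantile normalization, and without control 1 or control 2. *Foxj3*, *Foxn2* and *Foxo1* lie to the right of 0 under each of the 5 settings, and so do *Foxd2*, *Foxm1*, *Foxn3*, *Foxo3*, *Foxo4* and *Foxq1*. For genes whose groups do not overlap, leaving out a control could not change the sign. *Foxk1* lies at 1.24 without control 1 and at -0.41 without control 2.

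The genes controlled by FOXJ1 in ciliated cells held the strongest single differences among the partner and target lists. Of 15 genes, 13 were in the files and 10 were compared, with a median log2 fold change of -0.24, 3 (30%, beside 38.6% of all genes) higher and 4 lower (12.1% of all genes) in both KO libraries. This median changed sign with the libraries used, being 0.35 without control 1, -1.20 without control 2 and 0.0098 without the first KO library, and was -0.58 after median-ratio scaling. *Ccdc40*, an assembly factor of axonemal dyneins, had 53.82 and 12.23 TPM in the heterozygotes and 3.35 and 5.5 TPM in the KO libraries (-2.34 ± 0.79, unadjusted p = 0.0383, adjusted p = 0.328, limma). *Tekt2*, a filament protein of cilia and flagella, had 55.59 and 27.57 against 7.26 and 8.31 TPM (-2.20 ± 0.43, unadjusted p = 0.00593, adjusted p = 0.310, limma). *Spef2*, another flagellar gene, went the other way with 22.14 and 5.98 against 29.93 and 35.9 TPM (1.41 ± 0.65, adjusted p = 0.396, limma), and 2.28 without control 1 and 0.55 without control 2. *Foxj1* itself, as given above, did not separate. Among the 10 pachytene markers 5 were likewise lower and 2, *Mybl1* and *Spag6l*, higher in both KO libraries, and the part of spermatocyte stage in the values of this list was not tested.

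**Figure D4:**
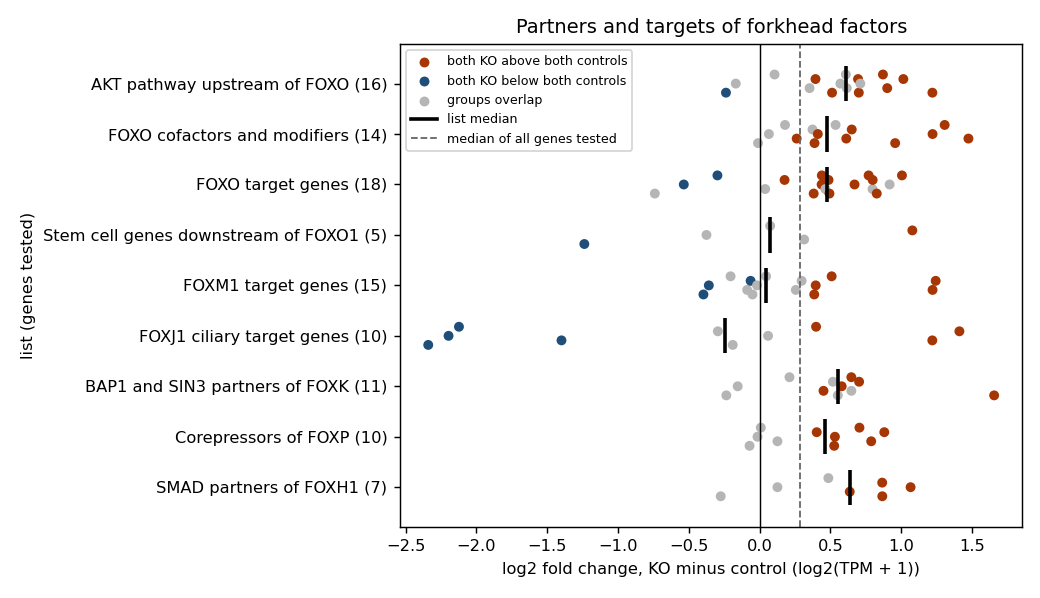
Log2 fold change, KO minus control on log2(TPM + 1), of each compared gene of 9 lists of regulators, partners and targets of forkhead factors, coloured by whether the 2 KO libraries lie above both controls, below both, or overlap them. The black bar is the list median and the dashed line that of all genes, and list medians run from -0.24 for the FOXJ1 ciliary targets to 0.64 for the SMAD partners of FOXH1.

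The remaining 25 forkhead genes were near the floor of these libraries. *Foxb1*, *Foxi1* and *Foxi2* were listed at 0 in all 4, and 17 more stayed under 1 TPM in every library, the highest being *Foxc1* at 0.74 TPM. Among these were *Foxl2*, the ovarian granulosa factor, at 0.29 TPM or less, and *Foxc2* at 0.67 TPM or less. Of the 25, 16 were listed at 0 in at least 1 library, and TPM keeps no read depth, so a 0 sets no upper limit.

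The other 5 reached 1 TPM in a single library or a pair. *Foxd3*, a factor of pluripotent cells and the neural crest on chromosome 4 (99656299 to 99658622), had 0.21 and 0 TPM in the heterozygotes and 1.24 and 2.18 TPM in the KO libraries, the only one of the 5 with both KO libraries above both controls. *Foxa3*, a liver factor also found in Leydig cells, had 1.84 and 0.58 against 0.78 and 0.73 TPM, highest in control 1 like the Leydig markers. *Foxe3*, a lens gene, was at 1.52 TPM in control 1 and listed at 0 in the other 3 libraries. *Foxs1* had 1.36 and 0 against 0 and 0.43 TPM, and *Foxn4*, a factor of retinal progenitors, 0.42 and 1.49 against 1.29 and 0.31 TPM. *Foxd4* and *Foxi3* carried the same values as each other in all 4 libraries (0.21 and 0 in the controls, 0 and 0.16 TPM in the KO libraries).

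All 44 members had a GENCODE record, on 16 chromosomes. For 20 of them another annotated gene overlaps the same bases, for 13 on the opposite strand, and as the kit does not mark strand, TPM of those genes may hold reads of both.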

How the data were processed

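RNA of GFP-positive cells sorted from 4 testes was sequenced with a poly(A) kit that does not mark strand. The authors trimmed reads with Trim Galore 0.5.0 and cutadapt 1.16, aligned them to mm10 with STAR 2.6.0a and estimated gene levels with RSEM 1.3.1. The deposited values are TPM, 1 file per sample. TPM sums to a fixed total and keeps no read depth, so read depth is unknown and counting intervals are not given. Here genes averaging 1 TPM or more (14512 of 24411) were compared on log2(TPM + 1), which understates changes of low genes, with limma 3.58.1 (R 4.3.3, mean-variance trend, two-sided) and Benjamini-Hochberg adjustment over all of them. No count test was used because the unit is TPM. With 2 against 2, an exact permutation test cannot go below p = 0.33. The symbol rule, the partner lists and the marker lists were chosen with earlier results of these data known. From each list, the gene most above and the gene most below 0 among those whose groups do not overlap are named, and up to 3 where the log2 fold change reaches 1. Gene positions are from GENCODE and promoters from RefSeq, both on GRCm38. Alternatives were other pseudocounts, filters, scalings, a replicate block and leaving out each library.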

Additional observations from a re-analysis of the deposited data

How the results depend on the processing

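Of 167 log2 fold changes of forkhead genes under other settings, 4 changed sign, all under a scaling, and each scaling gave 19 such values. After median-ratio scaling *Foxf1* went to -0.094, *Foxo6* to -0.054 and *Foxp1* to -0.011, and after quantile normalization *Foxf1* went to -0.12. The filters, the mean-variance trend and the replicate blocks leave every log2 fold change as it was. Only the pseudocounts and scalings could therefore change a sign. Without a filter, 13 of 41 forkhead genes were higher in both KO libraries, beside 32.9% of all genes. The added ones were *Foxa1*, *Foxd3*, *Foxn1*, *Foxp2* and *Foxr2* at low level. The forkhead median was 0.11 because more low genes entered, below the 0.17 of all genes in this setting. Median-ratio scaling gave 3 genes lower in both (adding *Foxj1* and *Foxk2*), beside 22.8% of all genes, and a median of 0.092. Quantile normalization gave 2 (adding *Foxk2*), beside 19.4% of all genes, and a median of 0.12. Both scalings take out part of the upward shift of all genes. No gene passed at a false discovery rate of 0.1 either.

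With 1 library left out at a time, 8 to 14 of 19 forkhead genes were higher in KO and 1 to 4 lower. These counts take genes for which the remaining KO libraries did not overlap the remaining controls. A gene separated with every library in stays separated, so the counts could only stay at 8 and 1 or rise. The 14 were counted without control 1, where 65.8% of all genes were higher and 25% lower. The shares of all genes were 52.9% and 36% without control 2. They were 42.9% and 15.6% without the first KO library, and 46.7% and 15.7% without the second. The forkhead median was 0.24 to 0.74, and 0 to 8 forkhead genes passed the false discovery rate beside 0 to 6985 of all genes. The counts above 0 came without control 1 or control 2. Of 76 such log2 fold changes, 11 changed sign, with ranges of -0.055 to 0.30 for *Foxf1*, -0.29 to 0.13 for *Foxj1*, -0.033 to 0.79 for *Foxj2*, -0.41 to 1.24 for *Foxk1*, -0.42 to 0.19 for *Foxk2*, -0.24 to 0.73 for *Foxo6*, -0.37 to 0.92 for *Foxp1*, -0.47 to 0.42 for *Foxp4* and -1.14 to 0.094 for *Foxr1*. The 8 forkhead genes higher and the 1 lower in both KO libraries could not change sign in these fits. All 11 changes therefore came from genes whose groups overlap. Of the list medians, 10 of 117 moved by more than the standard deviation of that median over the 4 control and KO pairs. The trend and the blocks could not move any of them. Among the 10 were the FOXM1 targets at -0.28 after median-ratio scaling and the FOXJ1 targets at -1.20 without control 2 (0.35 without control 1). The partner and target genes named were picked for groups that do not overlap, so their sign could not change with 1 library left out. Their size could, and several moved widely with the control left out. The ranges were 0.89 to 2.42 for *Mbd6*, 0.88 to 2.06 for *Ep300* and 0.40 to 1.76 for *Dusp6*. They were 0.55 to 2.28 for *Spef2*, -1.84 to -0.64 for *Egr4* and -3.37 to -1.32 for *Ccdc40*.

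The labels number the libraries of both genotypes, but same-numbered libraries did not deviate together (correlation -0.16). With the replicate number as a block, 0 genes passed, forkhead or other. With the numbers crossed, a pairing added after the data were seen, 87 genes passed, 7 higher and 80 lower, with 0 forkhead genes among them. The cause was not tested.

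The limits are the 2 testes per genotype, a control pair farther apart than the controls are from the KO libraries, and marker sums that differ between libraries. Genotype, the stage of the sorted cells and the copy number of the knock-in in 1 control cannot be told apart for any forkhead gene.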
